A study of Mus musculus with 6 samples.

Results

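Megakaryocyte–erythroid progenitors (MEPs) are the bone marrow cells from which red blood cells and platelet-forming megakaryocytes derive. In MEPs carrying an inducible *Nanog* transgene, 45 of the 12101 genes in the deposited table were high in dox-treated replicates 1 and 2 while dox-treated replicate 3 stayed at the level of the untreated replicates. The genes were chosen on the measured values. In each, the lower of dox-treated replicates 1 and 2 exceeded the highest untreated replicate by at least 1.5 on the log2 scale, and dox-treated replicate 3 lay at or below the highest untreated replicate. *Nanog* itself did not follow this pattern, since it was high in all 3 dox-treated replicates.

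All mice were adults labelled as CD-1 and carried R26-M2rtTA and Col1a1-tetO-Nanog, the dox-responsive activator M2-rtTA at the *Rosa26* locus and *Nanog* under a tetO promoter downstream of *Col1a1*. Treated mice received doxycycline (dox) in the drinking water for 5 days and untreated mice of the same genotype received none, with 3 replicates in each group. The activator is not restricted to blood cells, so every tissue of a treated mouse could express *Nanog*, and the effects of dox and of *Nanog* cannot be told apart here. The sources do not say whether replicates were single mice or pools, and any spread between them may include technical spread. MEPs were sorted as lineage-negative, cKit-positive, Sca1-negative cells by their CD34 and CD16/32 levels. Levels are in CPM (reads per 1000000, after scaling of the library sizes), back-transformed from the deposited log2 values, in which 0.5 reads had been added. They are given below in the order of replicates 1, 2 and 3 in each group.

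Of all libraries, dox-treated replicate 3 had the most reads on listed genes, 16153600, and the others had between 11264803 and 14298726. On the first principal component (60.3% of the variance) the scores of dox-treated replicates 1 and 2 were 57.5 and 56.4, that of dox-treated replicate 3 was 15, and those of the untreated replicates ran from -54.3 to -35.2. The reads of dox-treated replicates 1 and 2 differed by a mean chi-square of 5.51 per gene, and those of dox-treated replicate 3 differed from either by 45.8 and 45. Pairs of untreated replicates gave between 7.51 and 17.2, where sampling alone gives about 1, so no library repeated another. Dox-treated replicate 3 therefore stood apart from the other dox-treated libraries over the whole table, and the labels gave no batch for it. Genes of the erythroid list summed to between 9277 and 14584 CPM in the 6 libraries, more than any other blood cell list in the same library.

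NANOG is a homeodomain transcription factor known for holding embryonic stem cells in the pluripotent state, and adult blood cells do not normally express it. The *Nanog* gene, on chromosome 6 of NCBIM37 from 122657507 to 122664651, was at 1256, 1460 and 1024 CPM with dox and 0.739, 0.998 and 0.136 CPM without. Behind these values stood 17062, 19609 and 15959 reads with dox and 9, 13 and 1 reads without. Dox-treated replicate 3 thus held 75.4% of the mean *Nanog* level of replicates 1 and 2. The 45 genes together summed to 1297, 1383 and 263.5 CPM with dox and 295.0, 180.6 and 286.3 CPM without. For these genes dox-treated replicate 3 lay between untreated replicates 2 and 3, and its median level was 19% of the mean of dox-treated replicates 1 and 2, with a range over genes from 4.95% to 29.6%. On a scale set for each gene from 0 at the mean untreated log2 level to 1 at the mean log2 level of dox-treated replicates 1 and 2, dox-treated replicate 3 stood at 0.965 for *Nanog*. The median over the 45 genes was 0.037, with a range from -0.359 to 0.228. These values restate the choice of the genes and carry no test.

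**Figure D1:**
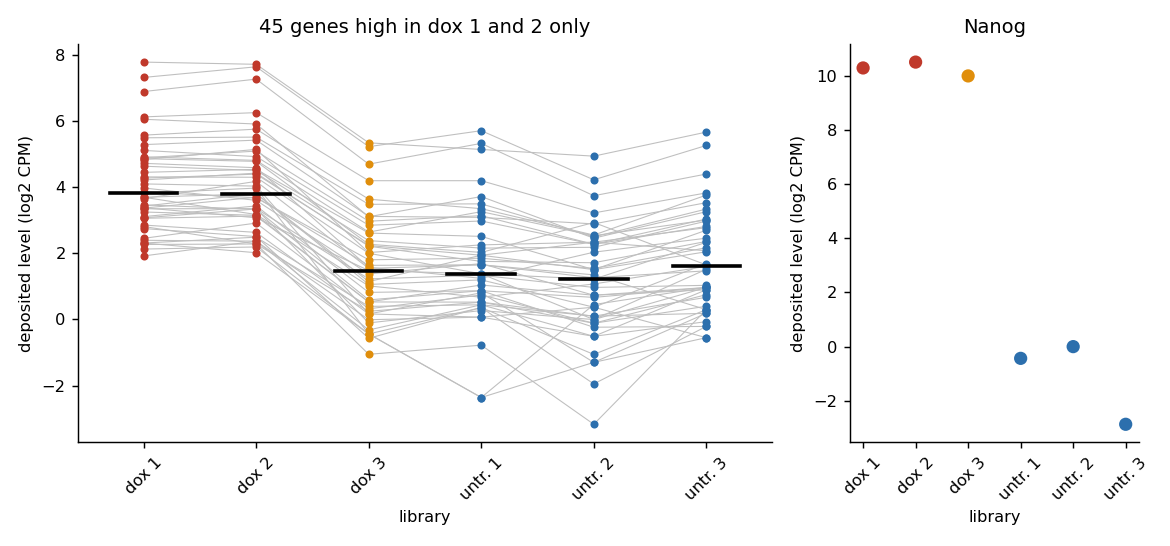
Deposited levels (log2 CPM) of the 45 genes (left, 1 point and grey line per gene, black bars at the median) and of *Nanog* (right) in dox-treated (dox) and untreated (untr.) replicates 1 to 3. The 45 genes in dox replicate 3 overlap the untreated libraries, whereas *Nanog* in dox replicate 3 is at 1024 CPM, close to dox replicates 1 and 2.

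The rule required dox-treated replicates 1 and 2 both to be high. The ratio of the higher to the lower had a median of 1.13 over these genes, against 1.08 over all listed genes. Its highest value among the 45 genes was 1.44. The median gene was 5.25-fold higher in the mean of dox-treated replicates 1 and 2 than in the untreated mean, with a range from 3.60-fold to 13.9-fold. In dox-treated replicate 3 the median gene was at 0.986 of the untreated mean, with a range from 0.613 to 1.31. It was above the untreated mean for 22 genes and below it for 23, and it fell below the lowest untreated replicate for 5. Untreated replicate 2 was the lowest untreated library for 35 of the 45 genes (77.8%), as it was for 72.2% of all 331 genes that met the margin in dox-treated replicates 1 and 2 and for 37.1% of all listed genes. The rule uses these levels, so the share is a description. Reads were few in places. *Pou6f1*, *Ccdc106*, *Rab36* and *Col16a1* had 3 reads or fewer in at least 1 untreated library, and 35 of the 45 genes had at least 10 reads in every library. In bulk RNA, fewer cells of a type and less RNA per cell cannot be told apart.

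Across the table, 331 genes met the margin in dox-treated replicates 1 and 2, and dox-treated replicate 3 ran from the untreated level to the level of the other dox-treated replicates without a break. It was at or below the highest untreated replicate for the 45 genes, above it by up to 0.5 (log2) for 49, by 0.5 to 1 for 72, by 1 to 1.5 for 54 and by at least 1.5 for 111. *Nanog* belonged to the last set. Just inside the margin of 1.5 were *Cuedc1* (1.54), *Ptk7* (1.52) and *Cd274* (1.51), and just outside were *Neb* (1.49), *Maged2* (1.49) and *Sdc1* (1.48). Nearest the other limit, dox-treated replicate 3 minus the highest untreated replicate was -0.017 for *P2rx7* and -0.015 for *Itgb3*, and 0.007 for *Vit*, 0.030 for *Trim5* and 0.031 for *Rgag4* outside it. The 45 genes are therefore the lower end of a graded set. The same rule applied to dox-treated replicates 1 and 3 found 0 genes and to replicates 2 and 3 found 2.

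**Figure D2:**
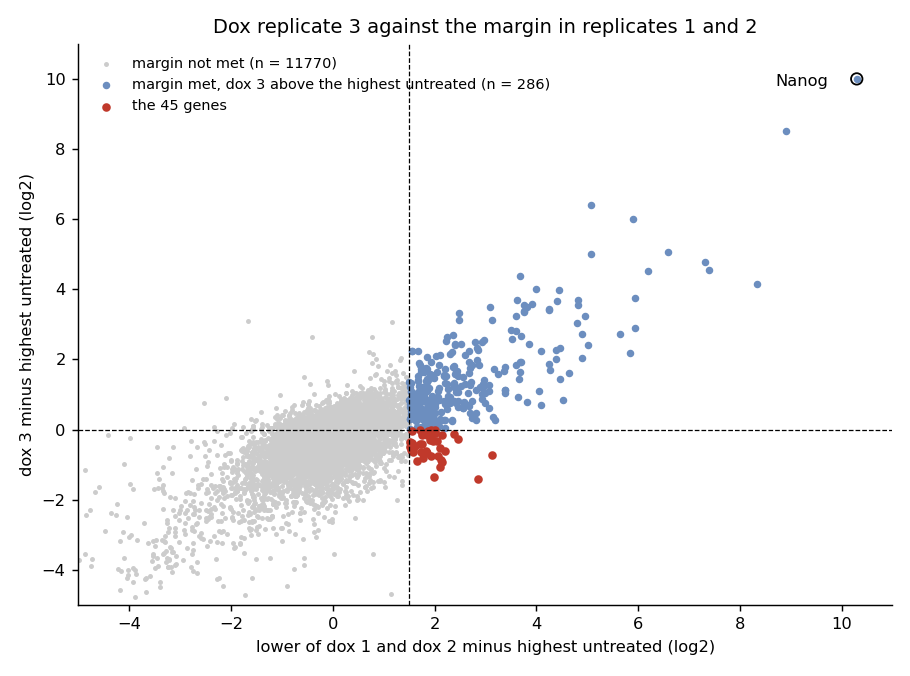
Each point is a listed gene. The horizontal axis is the lower of dox replicates 1 and 2 minus the highest untreated replicate (log2), the vertical axis dox replicate 3 minus the highest untreated replicate (log2), and dashed lines mark the limits of the rule. The 45 genes (red) join the 286 other genes that met the margin (blue) without a gap, *Nanog* sits at the upper right, and 66 genes fall outside the plotted range.

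Dox-treated replicates of all 3 numbers were set against the untreated replicates by limma, using the log2 table as deposited and the 12088 genes that reached 1 CPM in 3 or more libraries. At a Benjamini–Hochberg adjusted p under 0.05, 7.77% of these genes were called, 4.59% as higher and 3.18% as lower with dox. Of the 45 genes 0 were called and 20 had an unadjusted p under 0.05 (limma), as did 3533 of all 12088 genes. Without dox-treated replicate 3 the count was 44, which the choice of the genes fixes. Their median log2 fold change over all dox-treated replicates was 1.68, beside -0.03 for all genes tested. In the other genes that met the margin, 107 of 110 tested were called where dox-treated replicate 3 also met it, and 80 of 175 where it lay in between. The rule used this contrast, so nothing is read from these counts.

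The promoters of genes that move together can be searched for short words bound by transcription factors, and the words searched here were those of factors known in MEPs, the homeodomain words and common promoter words. Of the 45 genes, 35 had a promoter in the RefSeq table of GRCm38.p6, as did 9292 of the listed genes, and the 250 bases before each annotated start were searched on both strands. A gene counted once if any of its starts held the word, and 22.9% of the 35 genes and 20.4% of all had more than 1 start. TGANTCA, a loose form of the AP-1 word with any base at its centre, stood in 6 of the 35 (17.1%) and in 5.04% of all promoters. AP-1 is a dimer of FOS and JUN family proteins. The match was TGATTCA in *Lmo1* and *Gng2* and TGAGTCA in *Apobr*, *Rsad2*, *P2rx7* and *Fgl2*. The stricter AP-1 word, with G or C at its centre, was not counted over all promoters. AGATAA, a word of the GATA factors that direct megakaryocyte and red cell genes, stood in 4 (11.4%, against 7.40%), and TGATAA in 2 (5.71%, against 4.79%). TAATGG, a word described for NANOG, was found in the promoters of *Lgr4* and *Col16a1* (5.71%, against 5.06%), and the homeodomain word TAATTA in those of *Lmo1* and *Sash1* (5.71%, against 2.92%). The ETS words CCGGAA and AGGAAG stood in 14.3% and 31.4% of the 35 genes and in 26.7% and 31.9% of all. The RUNX word TGTGGT was in 8.57% against 12.9%, the E-box CANNTG in 60.0% against 60.8%, CACCC, a word of KLF factors, in 74.3% against 60.8%, and TATAAA in 5.71% against 7.51%. Homeodomain and GATA words can overlap others in the list. A word is a match of letters and not a site in use.

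The promoters with TGANTCA are printed because its share was the furthest, as a ratio, from that in all promoters, a choice made after the shares were seen, and that of *Cd274* because it alone held AGATAA more than once. Each is the 250 bases before the start site, 5′ to 3′ on the gene's strand, with matches to TGANTCA and AGATAA on either strand in capitals. The match to TGANTCA ended 10 bases before the start in *Fgl2*, 81 in *Rsad2*, 161 in *Gng2*, 190 in *Apobr*, 234 in *Lmo1* and 243 in *P2rx7*.
*Fgl2* (chr5:21372423-21372672, plus strand): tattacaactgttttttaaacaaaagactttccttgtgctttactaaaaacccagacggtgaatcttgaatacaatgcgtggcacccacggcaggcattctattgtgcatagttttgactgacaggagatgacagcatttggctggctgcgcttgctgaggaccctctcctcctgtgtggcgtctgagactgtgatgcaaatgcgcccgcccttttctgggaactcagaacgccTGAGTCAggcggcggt
*Rsad2* (chr12:26456453-26456702, minus strand): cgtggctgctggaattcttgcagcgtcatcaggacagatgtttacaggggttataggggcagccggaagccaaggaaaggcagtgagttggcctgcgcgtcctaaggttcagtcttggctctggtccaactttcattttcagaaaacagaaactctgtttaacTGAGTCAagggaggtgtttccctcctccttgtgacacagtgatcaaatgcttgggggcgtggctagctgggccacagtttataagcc
*Gng2* (chr14:19976694-19976943, minus strand): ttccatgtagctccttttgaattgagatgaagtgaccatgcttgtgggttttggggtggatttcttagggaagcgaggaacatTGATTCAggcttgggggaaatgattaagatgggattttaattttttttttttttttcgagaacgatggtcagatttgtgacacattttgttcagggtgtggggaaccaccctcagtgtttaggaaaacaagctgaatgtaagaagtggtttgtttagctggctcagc
*Apobr* (chr7:126584758-126585007, plus strand): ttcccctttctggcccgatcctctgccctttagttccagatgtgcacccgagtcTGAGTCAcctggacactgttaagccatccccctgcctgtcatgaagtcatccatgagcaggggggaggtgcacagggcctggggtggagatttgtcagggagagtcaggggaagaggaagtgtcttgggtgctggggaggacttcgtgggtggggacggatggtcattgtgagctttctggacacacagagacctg
*Lmo1* (chr7:109175208-109175457, minus strand): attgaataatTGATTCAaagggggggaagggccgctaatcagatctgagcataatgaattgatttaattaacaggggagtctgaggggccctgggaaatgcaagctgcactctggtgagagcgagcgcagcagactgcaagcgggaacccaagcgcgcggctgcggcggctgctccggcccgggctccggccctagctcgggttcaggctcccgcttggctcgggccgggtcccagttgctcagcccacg
*P2rx7* (chr5:122643677-122643926, plus strand): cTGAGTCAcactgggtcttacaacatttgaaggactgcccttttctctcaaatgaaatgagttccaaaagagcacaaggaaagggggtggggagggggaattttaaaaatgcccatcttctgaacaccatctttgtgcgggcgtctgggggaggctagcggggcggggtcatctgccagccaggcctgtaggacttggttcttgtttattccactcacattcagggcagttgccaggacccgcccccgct
*Cd274* (chr19:29367188-29367437, plus strand): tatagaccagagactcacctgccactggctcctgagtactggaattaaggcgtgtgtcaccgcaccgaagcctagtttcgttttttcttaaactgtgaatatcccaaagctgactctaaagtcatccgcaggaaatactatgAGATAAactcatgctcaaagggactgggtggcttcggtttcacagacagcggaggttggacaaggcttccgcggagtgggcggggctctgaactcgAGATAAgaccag
The 7 genes have no common role. They are a secreted fibrinogen-like protein, an interferon-induced antiviral enzyme, a G protein subunit, a lipoprotein receptor, a nuclear adaptor, an ATP-gated channel and an immune checkpoint ligand, and their levels follow by role.

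In the groups below, 44 of the 45 genes were put together by what their products are known to do, after the genes were known. The largest groups were 9 receptors, channels and transporters and 9 nuclear genes. There were 6 genes of the cytoskeleton, 6 of adhesion, matrix and secretion, 5 of membrane traffic and the lysosome, 5 of signalling inside the cell and 4 others. In every group the sum over genes was highest in dox-treated replicates 1 and 2, and dox-treated replicate 3 was within the range of the untreated sums.

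**Figure D3:**
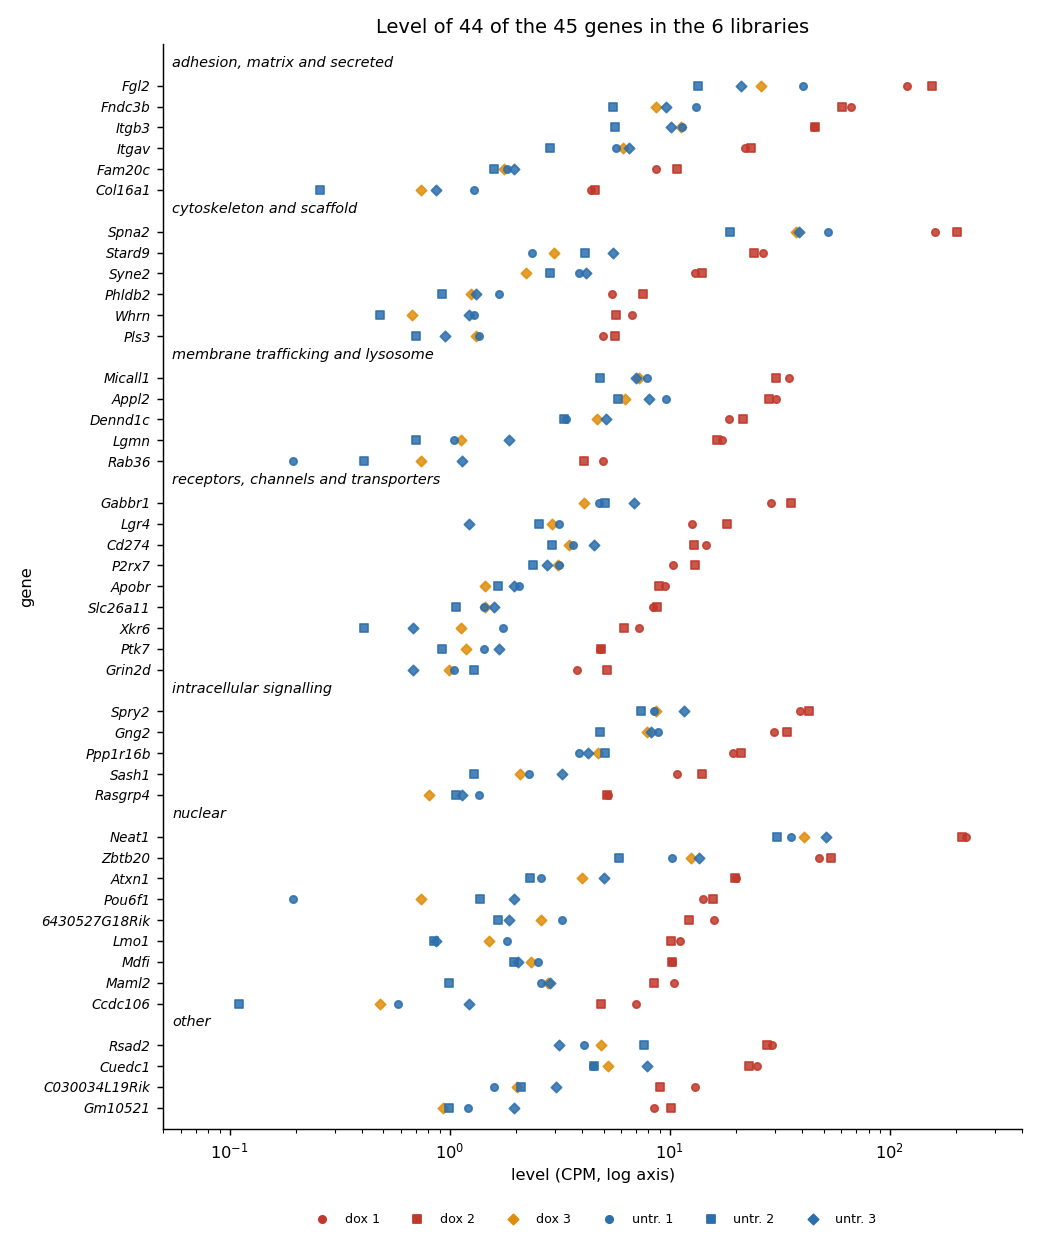
Level (CPM, log axis) of 44 of the 45 genes in dox-treated replicates 1 and 2 (red circle and square), dox-treated replicate 3 (orange diamond) and untreated replicates 1 to 3 (blue circle, square and diamond), grouped by the known role of the product. The red symbols stand to the right of the blue ones in each of these genes and the orange diamond lies among or left of the blue symbols.

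Adhesion, matrix and secreted products summed to 266.3, 300 and 54.5 CPM with dox and 73.6, 29.3 and 50.2 CPM without. *Itgb3* encodes integrin beta-3, which pairs with the *Itga2b* product to form the fibrinogen receptor of megakaryocytes and platelets. It lies on chromosome 11 of NCBIM37 from 104469370 to 104531790 and was at 45.2, 45.9 and 11.2 CPM with dox and 11.3, 5.65 and 10.1 CPM without. *Itgav*, on chromosome 2 from 83564554 to 83647073, encodes integrin alpha-V, the other partner of beta-3 in the vitronectin receptor, and was at 21.9, 23.3 and 6.13 CPM with dox and 5.72, 2.85 and 6.50 CPM without. For both chains dox-treated replicate 3 was within the untreated range. *Itga2b* was outside the rule, with 319.1, 314.1 and 66.9 CPM with dox and 37.5, 24.1 and 39.3 CPM without. Its level in dox-treated replicate 3 was 1.99-fold the untreated mean, whereas that of *Itgb3* was 1.24-fold and that of *Itgav* 1.22-fold.

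The integrin family was the only name family besides ion channels, exchange factors and predicted genes to hold more than 1 of the 45 genes. Its 2 genes were 4.44% of the 45, and the 16 listed integrin chains were 0.132% of all listed genes. Of 15 chains tested, 3 passed the test as higher with dox (*Itga6*, *Itga9* and *Itgb1*) and 1 as lower (*Itgb2l*) (limma, adjusted p from 0.013 to 0.045). Over all genes tested, 4.59% passed as higher and 3.18% as lower. *Itga9* was at 8.87, 8.60 and 2.41 CPM with dox and 0.505, 0.406 and 0.409 CPM without, and *Itgb5*, another partner of alpha-V, at 7.62, 7.41 and 1.44 CPM with dox and 1.05, 0.850 and 0.864 CPM without. Both were above every untreated replicate in dox-treated replicate 3, unlike *Itgb3* and *Itgav*. *Itga4*, an alpha chain of early blood progenitors, was at 389.9, 396.9 and 482.4 CPM with dox and 487.4, 399.5 and 506.9 CPM without, so the groups overlapped.

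*Fgl2*, a secreted fibrinogen-like protein of activated immune cells, had the highest level per kilobase of exon among the 45 genes, 36.2 CPM per kb in the mean of dox-treated replicates 1 and 2. It was at 119.4, 155.0 and 26 CPM with dox and 40.2, 13.4 and 21.2 CPM without, and its untreated replicates differed from each other more than dox-treated replicate 3 did from their mean. *Fndc3b*, a membrane protein with fibronectin type III repeats, was at 66.7, 60.4 and 8.63 CPM with dox and 13.2, 5.51 and 9.60 CPM without. *Fam20c*, the kinase that phosphorylates secreted proteins, was at 8.65, 10.8 and 1.76 CPM with dox and 1.83, 1.59 and 1.96 CPM without. *Col16a1*, a fibril-associated collagen, was low everywhere, between 0.259 and 1.28 CPM without dox and at 4.38 and 4.58 CPM in dox-treated replicates 1 and 2.

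Cytoskeletal and scaffold genes summed to 217.2, 257.6 and 46.0 CPM with dox and 63.1, 27.8 and 51.7 CPM without. *Spna2* (also *Sptan1*), the alpha chain of the spectrin network under the membrane of non-erythroid cells, was at 160.6, 200.7 and 37.6 CPM with dox and 52.5, 18.7 and 38.5 CPM without. Here dox-treated replicate 3 was within the untreated range. *Stard9*, a kinesin-like protein, was at 26.5, 24.2 and 2.98 CPM with dox and 2.37, 4.1 and 5.50 CPM without. *Syne2*, nesprin-2, which ties the nucleus to the cytoskeleton, was at 13.0, 14 and 2.21 CPM with dox and 3.85, 2.85 and 4.14 CPM without, and was among the 5 genes in which dox-treated replicate 3 fell below every untreated replicate. *Phldb2*, *Whrn* and the actin bundler *Pls3* were lower, at 4.97 to 7.56 CPM in dox-treated replicates 1 and 2.

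Genes of membrane traffic and the lysosome summed to 105.8, 100.7 and 20 CPM with dox and 22.1, 15 and 23.2 CPM without. *Lgmn* had the largest margin of all 45 genes, 3.14 on the log2 scale. It encodes legumain, a lysosomal asparaginyl endopeptidase, and lies on chromosome 12 of NCBIM37 from 103632294 to 103678023. Its level was 17.2, 16.4 and 1.12 CPM with dox and 1.05, 0.702 and 1.86 CPM without, a 13.9-fold difference between the mean of dox-treated replicates 1 and 2 and the untreated mean. In dox-treated replicate 3 it was 0.931 of the untreated mean. *Micall1* and *Appl2*, both proteins of endosomes, were at 34.7, 30.5 and 7.22 CPM and at 30.3, 28.2 and 6.26 CPM with dox, and between 4.84 and 9.60 CPM without. *Dennd1c*, an activator of RAB35, was at 18.7, 21.6 and 4.65 CPM with dox and 3.38, 3.29 and 5.14 CPM without. The small GTPase gene *Rab36* reached 4.97 CPM.

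The 9 receptors, channels and transporters summed to 100, 113.3 and 19.8 CPM with dox and 22.4, 18.3 and 22.0 CPM without. *Gabbr1*, a subunit of the metabotropic GABA receptor, was at 28.7, 35.5 and 4.07 CPM with dox and 4.78, 5.06 and 6.87 CPM without, so that dox-treated replicate 3 was below all untreated replicates. *Lgr4*, a receptor for R-spondins that raises WNT signalling, was at 12.6, 18.1 and 2.92 CPM with dox and 3.15, 2.55 and 1.23 CPM without. *Cd274*, which encodes the checkpoint ligand PD-L1, was at 14.5, 12.8 and 3.5 CPM with dox and 3.62, 2.92 and 4.50 CPM without. The ATP-gated channel *P2rx7*, known in macrophages and mast cells, was at 10.3, 13.0 and 3.11 CPM with dox and 3.15, 2.4 and 2.77 CPM without. None of these 4 receptors was above the highest untreated replicate in dox-treated replicate 3, as the rule requires. *Apobr* (a lipoprotein receptor of macrophages), *Slc26a11* (an anion transporter), *Xkr6*, *Ptk7* (a receptor-like protein of planar polarity) and *Grin2d* (a subunit of the NMDA glutamate receptor) were at 3.79 to 9.54 CPM in dox-treated replicates 1 and 2 and at 0.406 to 2.06 CPM without dox.

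The 5 signalling genes summed to 104.4, 117.6 and 24.2 CPM with dox and 24.8, 19.7 and 28.4 CPM without. *Spry2*, an inhibitor of receptor tyrosine kinase signalling, was at 39.2, 43.1 and 8.70 CPM with dox and 8.51, 7.43 and 11.6 CPM without, and was second to *Fgl2* per kilobase of exon at 19.7 CPM per kb. *Gng2*, a G protein gamma subunit, was at 29.8, 34.2 and 7.86 CPM with dox and 8.83, 4.84 and 8.23 CPM without. *Ppp1r16b*, a regulatory subunit of protein phosphatase 1, and the scaffold gene *Sash1* were at 19.4, 21.1 and 4.72 CPM and at 10.8, 14 and 2.09 CPM with dox. *Rasgrp4*, a RAS activator known in mast cells, was at 5.26, 5.17 and 0.802 CPM with dox and 1.36, 1.07 and 1.14 CPM without. It was another gene in which dox-treated replicate 3 was below every untreated replicate.

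Nuclear genes summed to 357.9, 347.0 and 67.7 CPM with dox and 59.2, 45.9 and 80.5 CPM without, and 7 of the 9 were above the untreated mean in dox-treated replicate 3. *Neat1*, the long noncoding RNA around which nuclear paraspeckles form, lies on chromosome 19 of NCBIM37 from 5824708 to 5845478 and was the most abundant of the 45 in CPM. It was at 221.5, 211.5 and 40.7 CPM with dox and 35.4, 30.8 and 51.0 CPM without. *Zbtb20*, a zinc finger repressor, was at 47.8, 54.2 and 12.5 CPM with dox and 10.2, 5.87 and 13.6 CPM without. *Pou6f1*, a POU homeodomain factor best known in brain, had the second largest margin (2.85), with 14.1, 15.7 and 0.738 CPM with dox and 0.194, 1.37 and 1.96 CPM without. *Lmo1*, a LIM-only adaptor known from the nervous system and T cell leukaemia, was at 11.1, 10.1 and 1.51 CPM with dox and 1.83, 0.850 and 0.864 CPM without. The level of *Pou6f1* in dox-treated replicate 3 was 4.95% of that in the other dox-treated replicates, the smallest share among the 45 genes, and that of *Lmo1* was 14.2%. *Atxn1*, the ataxin-1 corepressor gene, was at 19.9, 19.8 and 4.01 CPM with dox and 2.60, 2.33 and 5.05 CPM without. *Maml2* (a NOTCH coactivator), *Mdfi* (an inhibitor of MyoD family factors), *6430527G18Rik* (also *Irf2bpl*) and *Ccdc106* were at 4.88 to 15.8 CPM in dox-treated replicates 1 and 2 and at 0.111 to 3.23 CPM without dox.

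The remaining genes were *Rsad2*, which encodes the interferon-induced antiviral enzyme viperin, *Cuedc1*, the predicted gene *Gm10521* and the noncoding gene *C030034L19Rik*. *Rsad2* was at 29.2, 27.6 and 4.84 CPM with dox and 4.08, 7.65 and 3.14 CPM without, and *Cuedc1* at 24.9, 22.8 and 5.23 CPM with dox and 4.47, 4.54 and 7.87 CPM without. *Gm10521* and *C030034L19Rik* were at 8.43 to 13.0 CPM in dox-treated replicates 1 and 2. Of the 45 genes, 18 overlap another annotated gene, and 4 of these overlap another listed gene on the opposite strand (*Apobr*, *C030034L19Rik*, *Rasgrp4* and *Stard9*). The use of strand in counting is not stated, so reads of those pairs cannot be told apart.

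Of 15 hand-written lists of cell type markers and cell processes, the megakaryocyte and platelet list held 1 of the 45 genes (*Itgb3*) and the other lists held 0. Markers of other cell types moved with the 45 genes in part. Beside the counts called in each list, 4.59% of all genes tested were called higher and 3.18% lower. The 33 listed megakaryocyte genes, of 41 on the list, summed to 1400, 1420 and 880.2 CPM with dox and 745.7, 536.2 and 710.8 CPM without, and limma called 8 higher and 1 lower (median log2 fold change 0.90). Endothelial markers, 16 listed of 33, summed to 776.0, 746.2 and 460.1 CPM with dox and 384.7, 337.3 and 416.4 CPM without (5 higher, 0 lower, median 1.42). The stem cell and multipotent progenitor list, 22 of 26, summed to 1719, 1527 and 1009 CPM with dox and 632.1, 439.7 and 602.7 CPM without (4 higher, 0 lower, median 1.16). In each of these 3 sums dox-treated replicate 3 lay above all untreated replicates and below the other dox-treated replicates. By the mean log2 CPM over genes this also held for the endothelial and stem cell lists, but for the megakaryocyte list dox-treated replicate 3 (3.42) lay among the untreated replicates (3.44, 2.65 and 3.35), as it did for the 45 genes. In the sums of other lists dox-treated replicate 3 was among or below the untreated replicates while replicates 1 and 2 were higher. Mast cell genes, 12 of 26, summed to 898.2, 814.1 and 705.3 CPM with dox and 676.7, 499.5 and 736.9 CPM without (3 higher, 1 lower, median 1.17), but its mean log2 CPM in dox-treated replicate 3 (3.69) was above all untreated replicates (3.27, 2.81 and 3.45). Fibroblast, bone and stromal markers, 8 listed of 28, summed to 311.5, 303.3 and 244.7 CPM with dox and 248.3, 172.0 and 228.5 CPM without (2 higher, 0 lower, median 0.40), and *Col1a1*, *Col3a1* and *Pdgfra* were not among the listed genes. Immediate early and stress genes, 24 of 26, summed to 2147, 1831 and 1399 CPM with dox and 1583, 1727 and 1830 CPM without (1 higher, 1 lower, median 0.26), and dox-treated replicate 2 was only just above untreated replicate 3. Dendritic cell and antigen presentation genes, 9 of 17, summed to 208.3, 155.5 and 72.4 CPM with dox and 110.8, 95.2 and 102.8 CPM without, with 7 tested (1 higher, 1 lower, median -1.08). Their median and the sum differ in sign. Of the list of *Xist* and Y-linked genes only *Xist*, the noncoding RNA of the inactive X chromosome, was listed, at 2109, 1979 and 1340 CPM with dox and 1601, 1491 and 1703 CPM without (0 called, unadjusted p not under 0.05). B lymphoid markers, 10 of 16, summed to 120.0, 36.6 and 55.3 CPM with dox and 56.3, 45.7 and 61.7 CPM without, and T and NK lymphoid markers, 5 of 18, to 73.8, 51.4 and 37.2 CPM with dox and 63.4, 40.4 and 60.5 CPM without, so that the groups overlapped in both. The part of any of these lists in the levels of the 45 genes was not tested. With a block for the replicate number the counts called higher were 0 for the megakaryocyte list and 1 for the endothelial list.

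The sums of the remaining lists did not have the order seen in the 45 genes. Their called counts also stand beside 4.59% higher and 3.18% lower over all genes tested. The pluripotency and germ line list, 7 of 32, summed to 1318, 1518 and 1083 CPM with dox and 90.4, 81.8 and 70.1 CPM without, sums that include *Nanog* itself (1 higher, 0 lower, median -0.18). Granulocyte and monocyte genes, 27 of 29, summed to 930.8, 939.7 and 626.1 CPM with dox and 6305, 2770 and 4505 CPM without (0 higher, 15 lower, median -2.41). Here dox-treated replicate 3 moved with the other dox-treated replicates, as *Nanog* did. Erythroid genes, 37 of 40, summed to 9443, 9277 and 14584 CPM with dox and 13320, 13644 and 12828 CPM without (1 higher, 4 lower, median -0.33). Proliferation genes, 28 of 28, summed to 5935, 5801 and 8743 CPM with dox and 8875, 9087 and 8151 CPM without. For proliferation 0 genes were called, and 9 of 28 had an unadjusted p under 0.05 (limma), near the share in all genes (3533 of 12088). The mean was higher with dox in only 1 of the 28 (median log2 fold change -0.35), against 5721 of the 12088. The erythroid and proliferation sums in dox-treated replicate 3 were within or above the range of the untreated ones. Transcripts of the mitochondrial genome, 13 of 13, summed to 27195, 28490 and 35982 CPM with dox and 48588, 47922 and 52122 CPM without (0 higher, 9 lower, median -0.69).

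**Figure D4:**
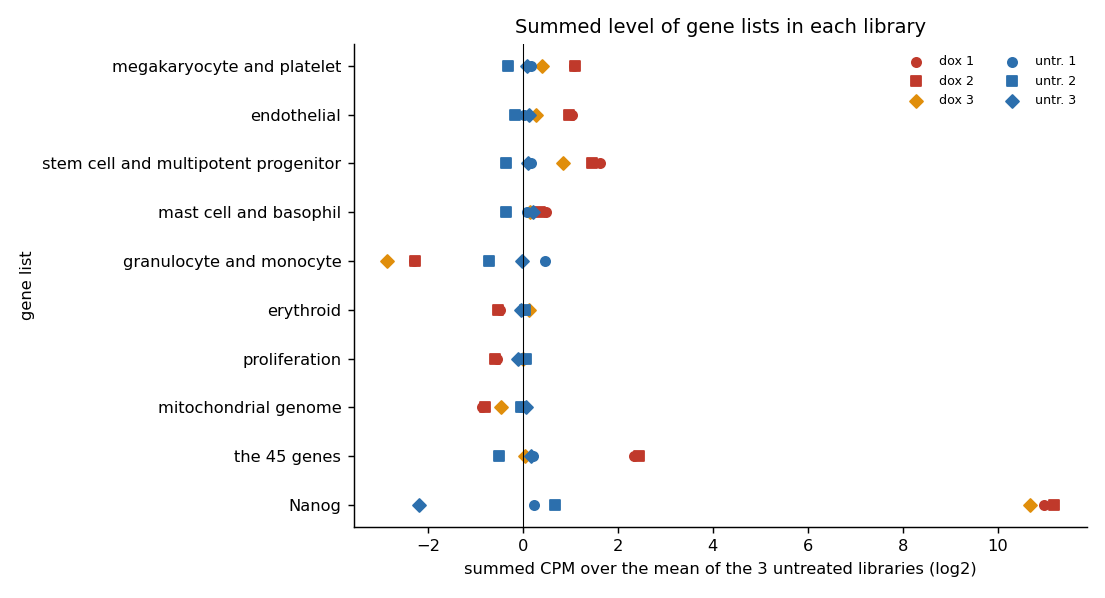
Summed CPM of 8 gene lists, of the 45 genes and of *Nanog* in each library, divided by the mean of the 3 untreated libraries (log2). Dox replicate 3 (orange diamond) lies with the untreated libraries for the 45 genes, with the other dox libraries for *Nanog* and for granulocyte and monocyte genes, and in between for the megakaryocyte, endothelial and stem cell lists.

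Exon length, which the rule did not use, tended to be greater in the 45 genes. The median length of their merged exons was 5845 bp, against 3594 bp for all listed genes, and 57.8% of the 45 exceeded 5000 bp, against 30.5% of all. Among genes high in all 3 dox-treated replicates the share was 36.0%, and in those between 42.3%. The longest merged exons, which join those of all annotated transcripts of a gene, were those of *Zbtb20* (30730 bp), *Syne2* (26726 bp), *Neat1* (20771 bp) and *Stard9* (19391 bp). Over all tested genes with a gene model, the median log2 difference between the mean of dox-treated replicates 1 and 2 and the untreated mean was -0.14 for exons of up to 2000 bp, -0.04 from 2000 to 5000 bp, 0.04 from 5000 to 10000 bp and 0.16 beyond. For dox-treated replicate 3 the same medians were 0.03, 0.00, -0.01 and 0.03, with no such order. Length thus moved with the level of dox-treated replicates 1 and 2 over the whole table, by far less than the 45 genes differed, and its part in their levels was not tested. The length classes held 1, 18, 19 and 7 of the 45 genes (0.0397%, 0.308%, 0.605% and 1.28% of the genes in each).

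**Figure D5:**
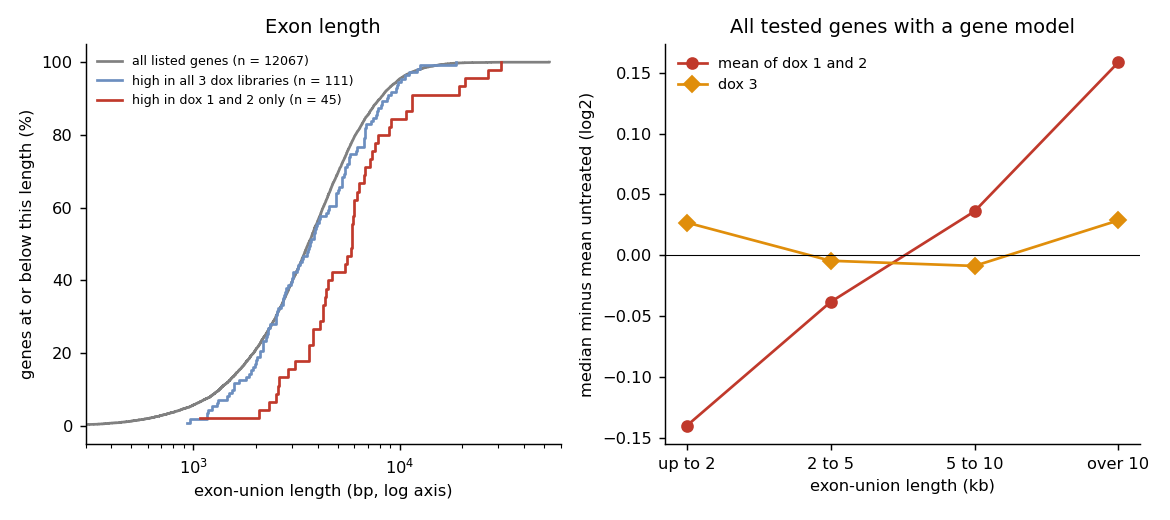
Left, share of genes (%) at or below each exon-union length (bp, log axis) for all listed genes, for the 111 genes high in all 3 dox libraries and for the 45 genes, whose curve is shifted to longer exons. Right, median difference from the mean untreated level (log2) by exon-union length for the mean of dox replicates 1 and 2, from -0.14 to 0.16, and for dox replicate 3, which stays within 0.03.

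The untreated level, which the rule used, had a mean under 5 CPM for 68.9% of the 45 genes, against 69.1% of the genes in between, 85.6% of those high in all 3 dox-treated replicates and 19.4% of all listed genes. GC content, known for 43 of the 45 from their coding transcripts, had a median of 51.9%, against 50.2% for all. Protein-coding genes made up 95.6% of the 45 and 93.4% of all. The genes were spread over 17 chromosomes, with 5 each on chromosomes 2 and 7, and no pair lay within 1000000 bp. The closest, *Mdfi* and *Ptk7* on chromosome 17, were 1185824 bp apart.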

How the data were processed

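RNA was sequenced from 3 replicates of dox-treated and 3 of untreated MEPs. The authors trimmed reads with Cutadapt, quantified them with RSEM on the NCBIM37 Ensembl transcriptome, normalized with limma and deposited log2 CPM with 0.5 reads added, for 12101 genes. The normalization factors, any low-expression filter and the strand setting are not given in the sources used here. Deposited values fell on whole reads (within 0.01) for 100% of values, and recovered reads were used for depth.

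The 45 genes, the lists, the families and the motifs were chosen with earlier results of these data known. Groups were compared with limma (3.58.1, R 4.3.3; lmFit, eBayes, Benjamini–Hochberg adjusted p under 0.05) on the 12088 genes that reached 1 CPM in 3 or more libraries, and the fit was tested on simulated data. Genes named were *Nanog*, the 15 with the largest margin, the 10 with the highest level, list and family members and those nearest the limits, which gave 34 of the 45, 1 of which is not reported here. The other 11, and the integrin chains outside the 45, were named after their values were seen. Positions are from the NCBIM37 annotation. Python 3.11.15 and pandas 2.3.3 were used. Alternatives changed the margin, pseudocount, filter, scaling, weights, block and libraries.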

Additional observations from a re-analysis of the deposited data

How the results depend on the processing

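The rule found 142 genes with a margin of 1, 14 with a margin of 2 and 23 after quantile normalization, in place of 45. The other 7 alternatives gave between 39 and 66 genes, and leaving out an untreated replicate gave 42 to 51. These were not all the same genes. Of the 45, 34 remained without untreated replicate 1, 43 without replicate 2 and 34 without replicate 3. Limma counts were recomputed for all genes, the 45 genes and the megakaryocyte and endothelial lists, and not for the other lists or the integrin chains. The count for the 45 genes stayed at 0 in 13 of 15 alternatives. With the replicate block, 53 genes were higher and 29 lower in place of 555 and 384, with 0 of the megakaryocyte list in place of 8 and 1 of the endothelial list in place of 5. A mean-variance trend gave 909 higher and 747 lower genes and 14 of the megakaryocyte list. Array quality weights gave 2515 higher and 2601 lower, 21 of the megakaryocyte list, 11 of the endothelial list and all 45 of the genes chosen, in place of 0. Voom precision weights gave 3 of the endothelial list. Plain library sizes moved the median of all genes from -0.03 to 0.08 (log2) and the split to 631 higher and 286 lower. With each library left out in turn, higher genes ran from 92 to 1801, lower genes from 36 to 1687, the megakaryocyte list from 0 to 16, the endothelial list from 0 to 9 and the 45 genes from 0 to 44. Each highest value was the one without dox-treated replicate 3. The causes were not tested. Across genes, the correlation of deviations was 0.019, -0.121 and -0.298 for replicates 1, 2 and 3 of the 2 groups. For libraries with different numbers it ran from -0.203 to 0.236. With 3 libraries per group and dox-treated replicate 3 far from the others, these values cannot show whether replicate numbers paired the samples. The labels do not say. The whole account rests on 1 library, dox-treated replicate 3, which had no second sample like it.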

Other observations

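Few genes moved the opposite way. Of 107 genes in which dox-treated replicates 1 and 2 both lay below the lowest untreated replicate by at least 1.5 (log2), dox-treated replicate 3 was at or above that replicate in 3 (2.80%), against 45 of the 331 genes in the other direction (13.6%). The 3 genes, named after their values were seen, were *Mei4*, a gene of meiotic recombination, *Aldh3b2*, an aldehyde dehydrogenase gene, and *AF085738*. *AF085738* was at 6.74, 3.83 and 33.0 CPM with dox and 65.7, 58.3 and 21.0 CPM without. The 2 genes high in dox-treated replicates 2 and 3 but not 1 were *Srp54a*, a subunit of the signal recognition particle, and *Echdc2*. *Srp54a* was at 1.95, 23.9 and 52.5 CPM with dox and 3.77, 6.17 and 0.0455 CPM without.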
